A study of Mus musculus with 8 samples.

Results

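The MHC class II genes H2-Aa, H2-Ab1, H2-Eb1, H2-DMa, H2-DMb1, Cd74 and Ciita were followed across 7 gates of cells in 4 single-cell libraries from mouse brain tumours. They were chosen by name, as 3 genes of class II chains, 2 genes of the peptide editor DM, the invariant chain and the master regulator, and are 7 of the 33696 genes in each matrix. All 7 had counts. The mice (genotype NestinCreERT2;Fus1;RFPTdT) carry a ZFTA-RELA fusion that a Cre recombinase driven by the Nestin promoter switches on in neural precursors, and they grow ependymomas, brain tumours. Every library came from such mice. They were randomised at 3 weeks of age to 1 intrathecal dose of a control antibody (vehicle IgG) or of mavrilimumab at 5 mg per kg, which binds the receptor alpha subunit for the cytokine GM-CSF, and tumours were taken at 6 to 8 weeks of age. Dissociated cells were sorted after staining for CD45, found on leukocytes, and Ter119, found on erythroid cells, and were run as 10x 5′ gene expression libraries, 2 labelled vehicle IgG and 2 labelled mavrilimumab. The study describes tumours pooled within a group and taken at recurrence, and the labels do not give the number of mice in a library, so that p-values measure the spread between libraries, which may be partly technical.

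MHC class II molecules are pairs of an alpha and a beta chain that carry peptides from endocytosed proteins to the cell surface, where CD4+ T cells read them. In the mouse, H2-Aa and H2-Ab1 encode the alpha and beta chains of I-A, and H2-Eb1 encodes the beta chain of I-E. Cd74, the invariant chain, occupies the peptide groove of new pairs and leads them to endosomes, and the DM pair (H2-DMa, H2-DMb1) exchanges the remnant of Cd74 for peptide. Ciita is the coactivator that switches these genes on. Dendritic cells and B cells use the pathway constitutively, whereas interferon gamma can induce it in monocytes, macrophages and microglia.

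Cells were taken as barcodes with at least 1000 UMIs (unique molecular identifiers, 1 per captured RNA molecule), 200 to 6000 genes and at most 10% mitochondrial UMIs. Values of the 4 libraries are given in the order labelled vehicle IgG 1, vehicle IgG 2, mavrilimumab 1 and mavrilimumab 2, called here library order. These libraries held 24354457, 148657643, 35785802 and 87127346 UMIs and gave 984, 26746, 6412 and 5490 cells, whose median depths were 11759, 3296, 3758 and 9507.5 UMIs. Between any 2 of them at most 60 barcodes of cells were shared. The direction of every comparison between the arms carries a limit: 3 of 3 T cell receptor files analysed name the other arm inside the file than their labels do. Of the 2749 barcodes in the receptor file labelled mavrilimumab 1, 2491 were cells of the expression library labelled mavrilimumab 2, and 4867 of 5659 barcodes of the file labelled mavrilimumab 2 were cells of that labelled mavrilimumab 1. Of the 193 barcodes of the file labelled vehicle IgG 1, 182 were cells of the expression library of that label.

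The gates were counts of UMIs: T (at least 1 of Cd3e), NK (no Cd3e, at least 2 of Ncr1 and Klrb1c), B (at least 2 of Cd79a and Cd79b), dendritic (no Cd3e, at least 2 of Flt3 and Zbtb46), microglia (at least 2 of P2ry12 and Tmem119), monocyte (no Cd3e, at least 2 of Ccr2 and Ly6c2 and at least 2 of Lyz2), and neural or tumour (no Ptprc, at least 3 of Nnat and Mdk). In library order the dendritic gate held 21, 152, 24 and 128 cells, the B gate 37, 119, 295 and 326, the monocyte gate 3, 51, 40 and 103, and the microglia gate 588, 651, 237 and 806. The T gate held 236, 4202, 5288 and 2900, the NK gate 5, 452, 20 and 376, and the neural or tumour gate 4, 15892, 7 and 455. A gate under 20 cells in a library was left out of means and tests, and 1264 of the 39632 cells met more than 1 gate. Other markers went against the names of some gates. In the library labelled vehicle IgG 1, 36 of 37 B-gate and 19 of 21 dendritic-gate cells also met another gate. There the B-gate cells had no UMI of Ms4a1 or Pax5, the dendritic-gate cells had none of Xcr1, and 5 microglia markers summed to 18323 and 19466 CPM (UMIs of the gene scaled to a total of 1e6) in the 2 gates, against 21310 in the microglia gate itself. In the library labelled vehicle IgG 2, 105 of 152 dendritic-gate cells met another gate, and 5 neural markers summed to 887 CPM. In its microglia gate 310 of 651 cells met another gate, the neural markers summed to 543 CPM, against 0.578, 5.08 and 45.7 in the other libraries, and the microglia markers to 6582 CPM, against 21310, 20415 and 20005. In the libraries labelled mavrilimumab, 17 of 24 and 90 of 128 dendritic-gate cells met another gate. In that gate of mavrilimumab 1, 5 B cell markers summed to 3480 CPM and 6 dendritic markers to 926. In that of mavrilimumab 2, the microglia markers summed to 1984 CPM and the dendritic markers to 978. Over the 4 libraries, in library order, the dendritic markers of this gate summed to 893, 169, 926 and 978 CPM. Its 5 monocyte markers were above them in each, at 1524, 197, 1545 and 1522 CPM. Monocyte-gate cells had no UMI of Ly6c1, 1 of 5 monocyte markers. The other 4 were each seen in at least 5% of cells in the last 3 libraries. There the monocyte markers summed to 1954, 3726 and 1832 CPM, and 5 neutrophil markers to 12902, 125 and 43059 CPM. The comparisons of summed counts and of chain-positive shares in these gates are therefore also given without a library or in cells of 1 gate only.

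RNA of the 3 chain genes was most often seen in the monocyte, B and dendritic gates. A cell was counted as chain-positive with at least 1 UMI of H2-Aa, H2-Ab1 or H2-Eb1. In the monocyte gate 51.0%, 75.0% and 52.4% of cells were chain-positive in the last 3 libraries, a mean of 59.5% ± 13.5 (SD, n = 3). The B gate had 18.9%, 42.9%, 83.1% and 49.4% in library order, a mean of 48.6% ± 26.5 (SD, n = 4). The dendritic gate had 23.8%, 15.1%, 75.0% and 53.1%, a mean of 41.8% ± 27.5 (SD, n = 4). These 3 gates did not differ beyond the spread between libraries in that order. In cells that met 1 gate only, the B-gate share was 66.1%, 97.7% and 91.4% in the last 3 libraries, the monocyte-gate share 42.9%, 72.0% and 10.3%, and the dendritic-gate share 23.4% and 42.1% in the second and the fourth. The mean over libraries was then 85.1% in the B gate and 41.7% in the monocyte gate. In the monocyte gate labelled mavrilimumab 2, cells without a chain UMI had 101352 CPM of the neutrophil markers and cells with at least 2 had 24, and the part of neutrophils in these shares was not tested.

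**Figure D1:**
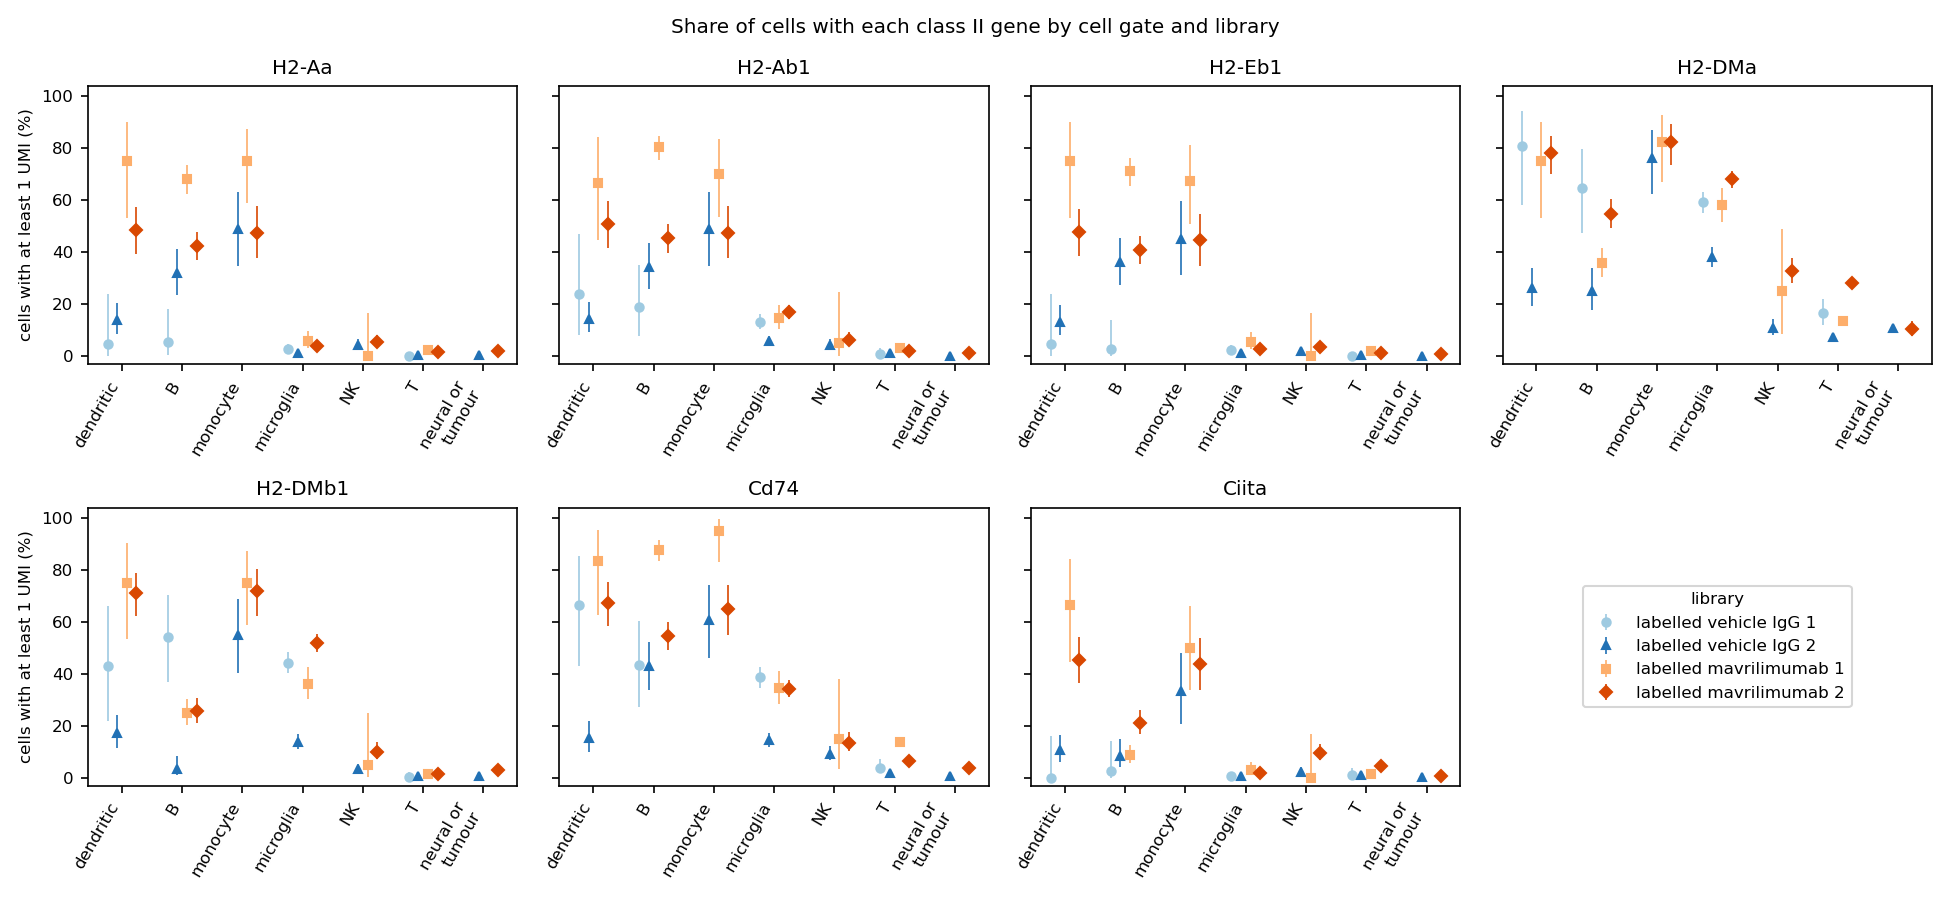
Share of cells with at least 1 UMI (y axis, %) of each class II gene in 7 cell gates (x axis) of 4 libraries. Points are libraries, bars are exact 95% binomial intervals, and gates under 20 cells are left out: H2-DMa lay between 38.1% and 68.2% of microglia-gate cells, while the 3 chain genes stayed at or below 17.0% there.

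Microglia-gate cells were chain-positive in 14.5%, 6.76%, 17.3% and 18.4% of cases, a mean of 14.2% ± 5.24 (SD, n = 4), most of them through H2-Ab1 (13.1%, 5.84%, 14.8% and 17.0%). In microglia-gate cells of 1 gate only the chain-positive shares were 13.8%, 10.6%, 16.4% and 17.5%. H2-Aa was seen in 2.89%, 1.23%, 5.91% and 3.85% of these cells and H2-Eb1 in 2.55%, 1.38%, 5.49% and 2.85%. Shares rise with depth: when each cell was thinned to 1000 UMIs, which every cell reached, the chain-positive share of the microglia gate was 1.53%, 2.15%, 5.49% and 4.34%. The NK gate had 7.08%, 5.00% and 9.57% in the last 3 libraries, a mean of 7.22% ± 2.29 (SD, n = 3), and the T gate 0.847%, 1.57%, 4.24% and 3.66%, a mean of 2.58% ± 1.62 (SD, n = 4). In the neural or tumour gate, used here for comparison, 0.642% and 3.08% of cells were chain-positive in the second and the fourth library, where the median cell had 4059.5 and 3732 UMIs. The T-gate share of 3.66% in the second of these libraries came from cells of 11122 UMIs in the median, and its 95% interval (exact Clopper-Pearson, counting error only) of 3.00% to 4.40% overlapped that of the neural or tumour gate, 1.69% to 5.11%. It was not told apart there from the share in neural or tumour cells. The microglia-gate interval in that library was 15.7% to 21.2%, from cells of 11327.5 UMIs in the median, and at 1000 UMIs a cell the microglia share was 4.34% and the neural or tumour share 1.76%. These intervals compare gates within 1 library. In the second library the T-gate interval, 1.22% to 1.99% at a median of 2567 UMIs, lay above that of the neural or tumour gate, 0.524% to 0.779%.

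In the dendritic gate 11.2%, 66.7% and 39.8% of cells held at least 50 chain UMIs in the last 3 libraries, but none did in that labelled vehicle IgG 1, where the most was 6. The monocyte gate had 31.4%, 55.0% and 37.9% of such cells, and the B gate 0.840%, 11.2% and 16.0%. In the B gate 23.5%, 48.5% and 35.9% of cells held 10 or more. Among chain-positive cells, all 3 chain genes were seen together in 82.6%, 88.9% and 88.2% in the dendritic gate, 88.5%, 86.7% and 81.5% in the monocyte gate, and 62.8%, 73.9% and 75.8% in the B gate. In the microglia gate the same share was 9.41%, 11.4%, 22.0% and 12.8% in library order.

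Most chain RNA sat in few cells. Over all libraries 557 of the 39632 cells held at least 10 chain UMIs. Of these, 289 met the B gate, 93 the monocyte gate, 93 the T gate, 92 the dendritic gate, 31 the microglia gate, 13 the NK gate and 7 the neural or tumour gate. Counted once each, 368 met 1 gate, 119 met 2 or more and 70 met none. Of all 64735 chain UMIs, 30883 lay in such cells of the dendritic gate, 23308 in those of the monocyte gate and 13019 in those of the B gate, cells of several gates being counted in each.

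The summed level of the 3 chain genes, in CPM of all UMIs of a gate, was 22.8, 2265, 16950 and 10750 in the dendritic gate in library order. It was 37.1, 888, 1507 and 1834 in the B gate and 5388, 16340 and 8736 in the monocyte gate of the last 3 libraries. The microglia gate had 28.9, 21.8, 903 and 724, and the T gate 0.987, 58.2, 323 and 51.5. Over all cells of a gate, both libraries labelled mavrilimumab were thus above both labelled vehicle IgG in the dendritic, B and microglia gates. The library labelled vehicle IgG 1 was lowest in the dendritic and B gates. In B-gate cells of 1 gate only this order did not hold, at 1883, 1764 and 7044 CPM in the last 3 libraries. Such microglia-gate cells kept it, at 27.7, 53.4, 114 and 238 CPM in library order. A sum over a gate cannot tell more positive cells from more RNA per cell.

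**Figure D2:**
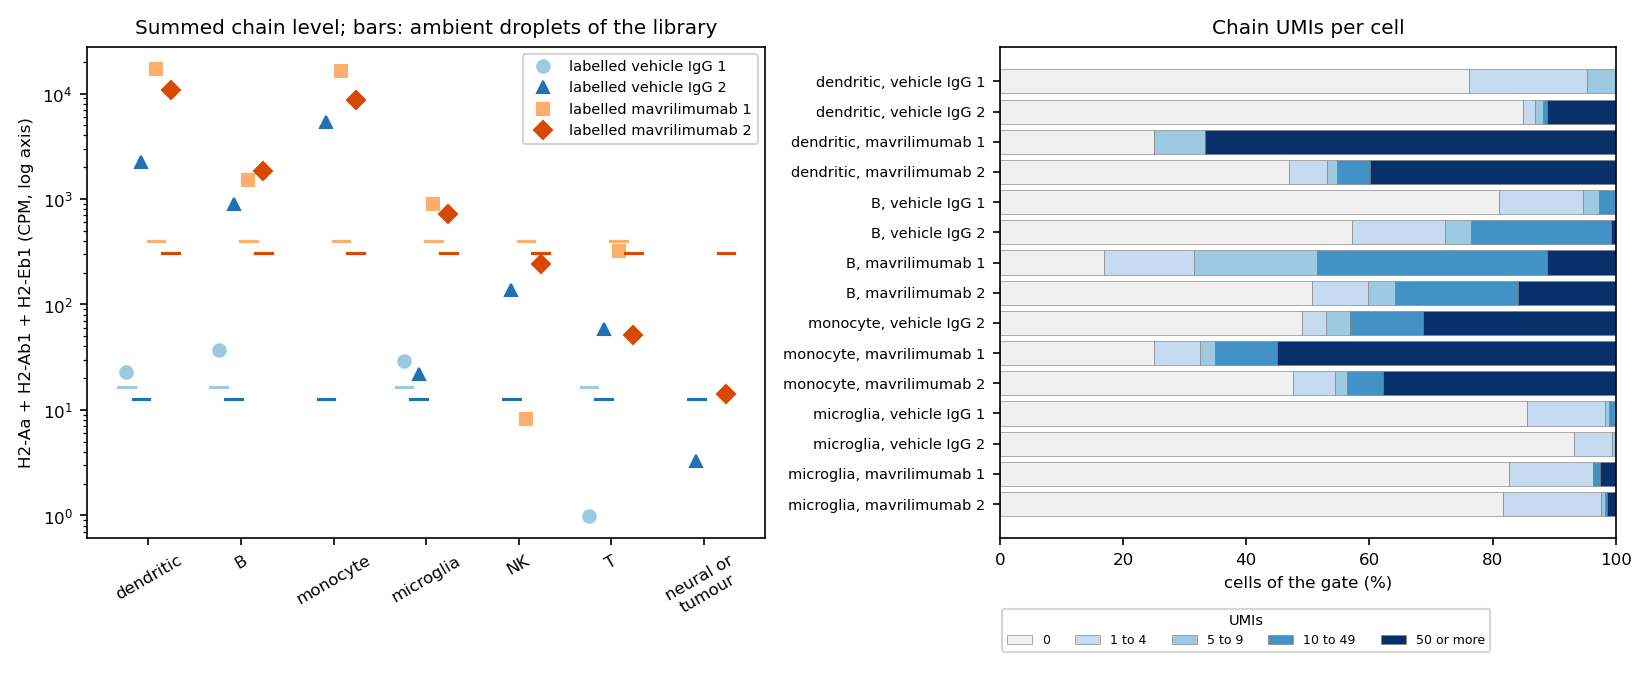
Left, summed level of H2-Aa, H2-Ab1 and H2-Eb1 (CPM, log axis) by gate, one symbol per library, with short bars at the level in that library's ambient droplets. Right, share of cells (%) by number of chain UMIs in 4 gates: the dendritic-gate cells of the library labelled mavrilimumab 1 held at least 50 chain UMIs in 66.7% of cases, those labelled vehicle IgG 1 in none.

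Free RNA, read from droplets without a cell, differed in level between the arms. In barcodes of 10 to 300 UMIs the 3 chain genes summed to 16.4, 12.6, 404 and 307 CPM, and Cd74 had 53.4, 21.1, 799 and 512 CPM. H2-DMa, at 36.5, 21.2, 38.8 and 54.9 CPM, differed far less. Set against this ambient level of their own library, chain levels were 428, 40.5 and 28.5 times as high in the monocyte gate, 180, 42.0 and 35.0 times in the dendritic gate and 70.6, 3.73 and 5.98 times in the B gate of the last 3 libraries. In the library labelled vehicle IgG 1 they were 1.39 times the ambient level in the dendritic gate and 2.26 times in the B gate. The microglia gate lay at 1.76, 1.73, 2.24 and 2.36 times, and the T gate at 0.0602, 4.62, 0.801 and 0.168 times. The microglia values rest on few cells: without the 7, 1, 9 and 14 cells of at least 10 chain UMIs they were 0.944, 1.37, 0.0779 and 0.0815 times, and in cells of 1 gate only 1.69, 4.24, 0.283 and 0.774 times. The libraries labelled mavrilimumab were thus the higher ones over all cells and the lower ones in both of these subsets. Over all microglia-gate cells, H2-DMa was 4.19, 5.61, 5.31 and 4.70 times, and H2-DMb1 4.26, 15.8, 6.39 and 5.99 times, the ambient level.

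**Figure D3:**
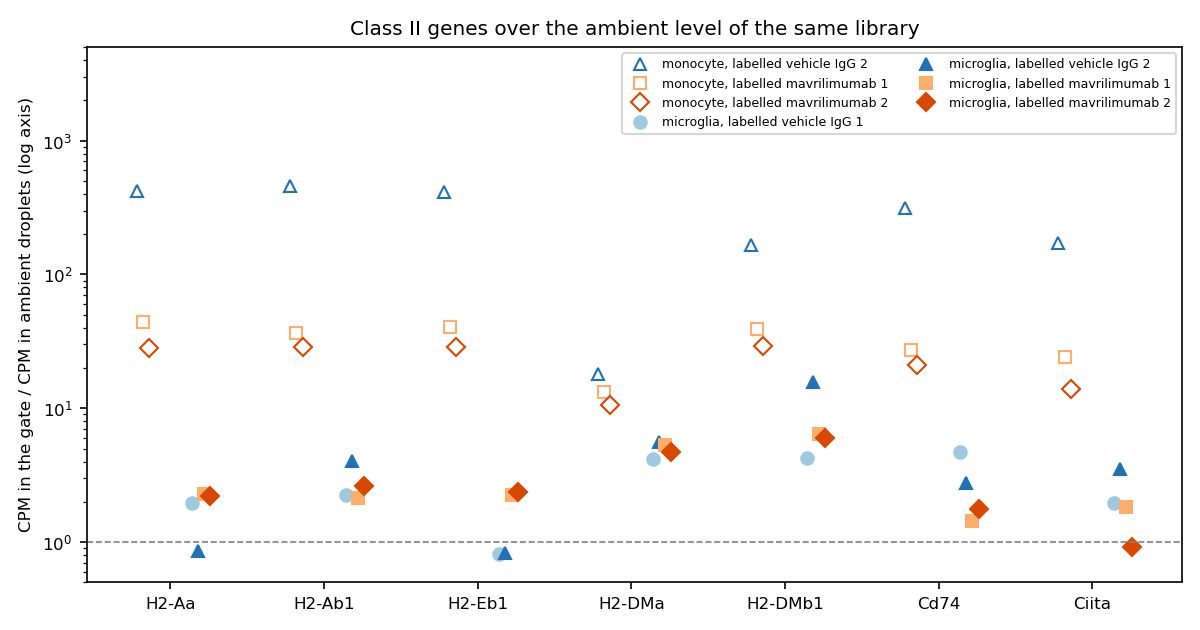
Level of each class II gene in the monocyte gate (open symbols) and microglia gate (filled symbols), divided by its level in ambient droplets of the same library (y axis, log scale). The dashed line marks equality: microglia-gate H2-DMa lay between 4.19 and 5.61, and H2-Eb1 between 0.814 and 2.35.

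Cd74 was seen in more cells than any of the chain genes in most gates. It was present in 60.8%, 95.0% and 65.0% of monocyte-gate cells of the last 3 libraries, in 66.7%, 15.1%, 83.3% and 67.2% of dendritic-gate cells and in 43.2%, 42.9%, 87.8% and 54.6% of B-gate cells in library order. Per chain UMI, 1.16, 1.17 and 1.18 UMIs of Cd74 were counted in the dendritic gate of the last 3 libraries and 1.23, 1.32 and 1.23 in the monocyte gate. The ratio varied by a few hundredths between dendritic-gate sums whose chain levels differed several-fold. In the B gate it was higher, at 1.97, 4.53 and 2.07. In the microglia gate it was 8.70 in the first library, labelled vehicle IgG 1, but 1.28 and 1.26 in both labelled mavrilimumab, where few cells carried most chain RNA. It is not given for the second, which had under 100 chain UMIs in this gate. Since 1 UMI marks 1 captured 5′ end, these ratios are of molecules and need no correction for gene length.

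The DM genes had another pattern: they were common in microglia-gate cells. H2-DMa was seen in 59.4%, 38.1%, 58.2% and 68.2% of microglia-gate cells in library order, and H2-DMb1 in 44.2%, 13.8%, 36.3% and 51.9%. Cells of 1 gate only had 57.8%, 44.3%, 59.5% and 70.3% for H2-DMa and 43.1%, 19.4%, 36.4% and 54.5% for H2-DMb1. Levels were 153, 119, 206 and 258 CPM for H2-DMa and 70.9, 30.5, 119 and 128 CPM for H2-DMb1. Among microglia-gate cells with no chain UMI at all, 53.9%, 35.3%, 52.0% and 63.7% still had H2-DMa, and 38.8%, 12.03%, 30.1% and 48.3% had H2-DMb1. In the monocyte gate H2-DMa was present in 76.5%, 82.5% and 82.5% of cells and H2-DMb1 in 54.9%, 75.0% and 71.8%. The 2 genes were not in a fixed proportion: per UMI of H2-DMb1 there were 1.13, 0.591 and 0.952 UMIs of H2-DMa in the dendritic gate of the last 3 libraries, 10.0, 1.65 and 2.67 in the B gate and 10.8, 3.10 and 6.25 in the T gate. T-gate cells carried H2-DMa in 16.5%, 7.50%, 13.5% and 28.2% of cases, against 10.8% and 10.5% of neural or tumour cells of the second and the fourth library.

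Ciita was seen in 33.3%, 50.0% and 43.7% of monocyte-gate cells and in 10.5%, 66.7% and 45.3% of dendritic-gate cells of the last 3 libraries. None of the 21 dendritic-gate cells labelled vehicle IgG 1 had it, which allows a share of cells with a UMI of up to 14.3%. B-gate cells had it in 2.70%, 8.40%, 8.81% and 21.2% of cases and microglia-gate cells in 0.680%, 0.768%, 2.95% and 1.74%. T-gate cells had it in 1.27%, 1.24%, 1.29% and 4.59% of cases, and NK-gate cells in 2.21%, 0% and 9.57% of the last 3 libraries, where 0 of 20 cells allow a share of up to 15.0%. Among dendritic-gate cells with a chain UMI, 65.2%, 83.3% and 82.4% had Ciita in the last 3 libraries, against 0.775%, 16.7% and 3.33% of those without. In the B gate the 2 shares were 11.8% and 5.88%, 10.2% and 2.00%, and 38.5% and 4.24%. Chain-positive dendritic-gate cells thus had the regulator more often than chain-positive B-gate cells in each of these 3 libraries. In the median these chain-positive cells held 4607, 9218 and 20048.5 UMIs in the dendritic gate and 2578, 15286 and 5778 in the B gate. Ciita was not compared at equal depth in them.

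A few microglia-gate cells carried most of that gate's chain RNA in the libraries labelled mavrilimumab. Cells with at least 10 chain UMIs numbered 7, 1, 9 and 14 in library order, and 5 and 9 of the last 2 counts also met the dendritic or monocyte gate. Without these cells the summed chain level of the gate was 15.5, 17.2, 31.4 and 25.0 CPM, in place of 28.9, 21.8, 903 and 724. This split uses the chains themselves and is a description. Without the same cells, Cd74 stood at 191, 51.3, 135 and 96.2 CPM, with the libraries labelled vehicle IgG above and below those labelled mavrilimumab, and H2-DMa at 151, 118, 187 and 240 CPM.

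The gates were compared in 1 edgeR quasi-likelihood fit to the 24 sums of counts per library and gate, with the library as a term. Folds are log2 with their SE, and a gene was called at a Benjamini-Hochberg adjusted p under 0.05 over 15315 genes. The SE of every edgeR fold was derived from its test, as the absolute fold divided by the square root of the F statistic. All 7 genes were higher in the monocyte gate than in the microglia gate, where 6.46% of all genes tested were called higher. H2-Ab1 had a log2 fold of 3.94 ± 0.85 (edgeR adjusted p = 0.00769), H2-Aa 4.35 ± 1.11 (0.0181) and H2-Eb1 4.27 ± 1.01 (0.0122), with Cd74 at 3.73 ± 1.03 (0.0261). Ciita differed by 4.28 ± 0.57 (edgeR adjusted p = 0.000424). H2-DMb1 differed by 2.66 ± 0.60 (0.00955) and H2-DMa by 1.43 ± 0.35 (0.0136), smaller folds than those of the chains. The median of the 7 was 3.94, against -0.28 over all genes. These calls rest on few libraries: without that labelled mavrilimumab 1, or without mavrilimumab 2, Ciita alone was called (4.51 and 4.36), and without vehicle IgG 2 only Ciita (3.95) and H2-DMa (1.29) were. In these fits, in that order, 300 of 15388, 106 of 15022 and 691 of 16306 genes were called higher. In cells of 1 gate only, 929 of 14004 genes were called higher. Among the members H2-DMa (0.36) and H2-DMb1 (1.23) were not called, while the other 5 were, at 4.08 to 6.08. The libraries did not share this order: in that labelled mavrilimumab 2, the 39 monocyte-gate cells of 1 gate held the chains at 114 CPM, with 10.3% of them chain-positive, and such microglia-gate cells held them at 238 CPM, with 17.5% positive.

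Dendritic-gate sums were not told apart from monocyte-gate sums: 0 of the 7 genes were called, in a contrast in which 0.699% of all genes were. Of 325 dendritic-gate and 197 monocyte-gate cells, 77 met both gates, so that the sums share cells. In the library labelled mavrilimumab 2, 44 of the 45 monocyte-gate cells with at least 10 chain UMIs also met another gate. The log2 differences ran from -0.82 to -0.36, and from 0.18 to 1.08 in cells of 1 gate only, so that no order between these gates holds. Against the microglia gate, where 0.751% of genes were called higher, Ciita was called (3.92 ± 0.54, edgeR adjusted p = 0.00198), whereas H2-Aa (3.53 ± 1.03), H2-Ab1 (3.28 ± 0.79) and H2-Eb1 (3.71 ± 0.93) missed the threshold at edgeR adjusted p = 0.111, 0.0567 and 0.0699. Without the library labelled vehicle IgG 1, whose dendritic gate carried microglia markers, 250 of 14985 genes were called higher. Of the 7 members, 6 were, all but H2-DMa, with H2-Ab1 at 4.08 and Cd74 at 4.07. Without the library labelled mavrilimumab 1 or that labelled mavrilimumab 2, none was, Ciita being at 3.79 and 3.77. In Ptprc-positive cells that did not meet a neutrophil rule, an alternative chosen after the data were seen, 526 of 12960 genes were called higher. All 7 members were among them, from 1.00 for H2-DMa to 4.28 for Ciita.

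Dendritic-gate sums were higher than B-gate sums in 3 of the 7 genes, where 1.61% of all genes were called higher: H2-DMa by 1.45 ± 0.33 (edgeR adjusted p = 0.0177), H2-DMb1 by 2.74 ± 0.59 (0.0137) and Ciita by 2.18 ± 0.53 (0.0256). The chains differed by 1.64 to 2.02 and Cd74 by 0.80, none of them called. Against the monocyte gate, where 3.92% of all genes were called lower, B-gate sums were lower in H2-DMb1 (-3.49 ± 0.64, edgeR adjusted p = 0.00374), Ciita (-2.53 ± 0.55, 0.00914), H2-Ab1 (-2.47 ± 0.75, 0.0481) and H2-DMa (-2.05 ± 0.36, 0.00253). H2-Eb1 (-2.58), H2-Aa (-2.46) and Cd74 (-1.56) were not called. In both contrasts none of the 7 was called without the library labelled mavrilimumab 1, or without that labelled mavrilimumab 2, and H2-Ab1 was not called against the monocyte gate without vehicle IgG 2 (-2.22). Among cells of 1 gate only, H2-DMb1 alone stayed called, at 3.31 and -2.53, and H2-Ab1 came to 0.055 against the monocyte gate. There 456 of 14004 genes were called higher in the dendritic than in the B gate. Against the monocyte gate 876 were called lower in the B gate.

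Microglia-gate sums exceeded T-gate sums in 4 of the 7 genes, where 19.9% of all genes were called higher. H2-DMb1 led with 3.97 ± 0.60 (edgeR adjusted p = 7.99e-05), followed by Cd74 at 2.59 ± 0.93 (0.0329), H2-DMa at 2.44 ± 0.33 (3.5e-05) and H2-Ab1 at 2.34 ± 0.76 (0.0203). Ciita differed by 0.25 ± 0.54, H2-Aa by 2.14 ± 0.98 and H2-Eb1 by 2.15 ± 0.90, none called. Cd74 and H2-Ab1 were not called without the library labelled vehicle IgG 1 (1.41 and 1.76) or without mavrilimumab 2 (2.56 and 2.15), whereas both DM genes were called in each of these fits. In them 2334 of 14985 and 1889 of 15022 genes were called higher. Against the NK gate, where 11.3% of all genes were called higher, the 2 DM genes were higher, H2-DMa by 2.19 ± 0.39 (edgeR adjusted p = 0.000907) and H2-DMb1 by 2.31 ± 0.69 (0.0239), but without the library labelled mavrilimumab 1 H2-DMb1 (2.24) and without mavrilimumab 2 both (2.03 and 2.07) were not called. The other 5 were not called against the NK gate (1.21 for H2-Aa, 1.73 for H2-Ab1, 1.67 for H2-Eb1, 1.72 for Cd74 and -0.45 for Ciita). Between the NK and T gates, where 2.03% of genes were called, 0 of the 7 were, with differences of 0.93 for H2-Aa, 0.61 for H2-Ab1, 0.48 for H2-Eb1, 0.25 for H2-DMa, 1.66 for H2-DMb1, 0.87 for Cd74 and 0.70 for Ciita. The T gate exceeded the neural or tumour gate in the 3 chains (3.37 to 4.04), Cd74 (3.09) and Ciita (2.72), where 18% of all genes were called higher, but not in H2-DMa (0.33) or H2-DMb1 (0.46). Without the library labelled mavrilimumab 2 none of these 5 was called, without vehicle IgG 2 only H2-Eb1 was (4.44), and without mavrilimumab 1 H2-Aa (2.88) and Cd74 (2.48) were not. In the library labelled mavrilimumab 1, the T-gate cells with at least 2 chain UMIs had 29681 CPM of 5 B cell markers, led by Ighm in the B gate, against 266 CPM in T-gate cells with none. The part of such cells in the T-gate values was not tested, and 287 cells met both gates.

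Across the 24 sums, the genes most like the summed chains, among those with a mean of at least 20 CPM, were members. Pearson's r of log2(CPM + 1) was 0.994 for H2-Ab1, 0.991 for H2-Eb1 and 0.990 for H2-Aa, which are part of the sum, 0.966 for Cd74 and 0.95 for Ciita. H2-DMb1 (0.817) ranked 19th and H2-DMa (0.758) 36th of 8021 genes with a mean of at least 20 CPM. The 10 genes outside the list with the highest r were Plbd1 (0.901), Rnase6 (0.900), Ifitm6 (0.863), Kmo (0.839), Flt3 (0.839), Lrrk2 (0.831), Gm15987 (0.823), Clec9a (0.821), Ifi205 (0.819) and Emilin2 (0.818). Flt3, the receptor of a dendritic cell growth factor, set the dendritic gate, and Clec9a is a receptor of cross-presenting dendritic cells. The 24 sums share 4 libraries, their depth and their free RNA, and many cells meet several gates, so r is given as a description. The mean of 20 CPM was taken over the same sums, which favours genes that are high where the chains are. Ciita had a mean of 112 CPM in the dendritic and 139 in the monocyte gate, against 15.1 in the B and 6.63 in the microglia gate.

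Members that move together invite a look at their promoters, where class II genes are known for an X box, bound by the RFX complex, followed by a Y box, bound by NF-Y, onto which CIITA assembles. RefSeq promoters (GRCm38.p6, 250 bases before to 50 after the start) were given for 4 of the 7 genes, H2-Aa, H2-Eb1, H2-DMa and H2-DMb1, all on chromosome 17. H2-Ab1, Cd74 and Ciita are named only. The letters ACNGATG, from the X box, and TGATTGG, from the Y box, were searched on both strands, and a pair was counted when both lay on 1 strand with starts 20 to 50 bases apart. The windows from -130 to -31 before the start are shown for the chains with an entry and for H2-DMb1, with the paired letters in capitals (for H2-Aa the Y letters alone), because H2-Eb1 and H2-DMb1 hold the pair and H2-Aa does not:
H2-Eb1, chr17:34305737-34305836, plus strand: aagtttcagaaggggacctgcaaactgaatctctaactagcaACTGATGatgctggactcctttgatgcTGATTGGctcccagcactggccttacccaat
H2-DMb1, chr17:34153061-34153160, plus strand: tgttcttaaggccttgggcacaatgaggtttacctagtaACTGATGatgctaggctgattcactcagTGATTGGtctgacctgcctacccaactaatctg
H2-Aa, chr17:34287854-34287953, minus strand: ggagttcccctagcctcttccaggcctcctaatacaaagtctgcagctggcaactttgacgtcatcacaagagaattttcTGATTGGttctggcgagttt
In H2-Eb1 the X letters began at -88 and the Y letters at -61, 27 bases apart, and in H2-DMb1 at -91 and -63, 28 apart. H2-Aa held the Y letters at -50, the X letters outside the window shown, and no pair, and neither of 2 entries of H2-DMa held either letter run. Among non-members, H2-DMb2 and H2-Eb2 held a pair, 28 and 27 bases apart. The X letters were found in 9.85% and the Y letters in 7.82% of 32851 mouse promoters, the pair in 18 of them (0.0548%). Of the genes searched, H2-Eb1 (r = 0.991) and H2-DMb1 (0.817) held the letter pair and H2-Aa (0.990) did not. A match of letters is not a bound site, and a missing match does not show that a box is missing. Only these letters were searched, so whether the boxes themselves go with r was not tested.

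Libraries labelled mavrilimumab were then compared with those labelled vehicle IgG within each gate, under the limit on the arm labels given above. The chain-positive share was higher in both libraries labelled mavrilimumab than in both labelled vehicle IgG in the dendritic gate (difference of means 44.6 percentage points), the B gate (35.3), the microglia gate (7.22) and the T gate (2.74). With 2 libraries against 2, the exact two-sided permutation test cannot give less than 0.33, and it gave p = 0.33 for each. In the monocyte gate (1 against 2) the difference was 12.7 points (exact permutation p = 0.667), but -1.73 in cells of 1 gate only, 1.45 without mavrilimumab 1 and 24.0 without mavrilimumab 2, and in the NK gate 0.208 (p = 1). The neural or tumour gate had 1 library per arm and a difference of 2.44 points, with no test. In cells of 1 gate only the difference was 18.7 points in the dendritic gate (1 library per arm, no test), 28.4 in the B gate (1 against 2), 4.79 in the microglia gate and 1.79 in the T gate (exact permutation p = 0.33 for the last 3), and -0.801 in the NK gate (p = 1). Leaving out the library labelled vehicle IgG 1, the difference was 48.9 points in the dendritic gate, 23.4 in the B gate and 11.1 in the microglia gate. Without vehicle IgG 2 it was 3.38 in the microglia gate, and without mavrilimumab 1 it was 18.5 in the B gate. Without the cells of at least 10 chain UMIs, the microglia-gate shares were 13.4%, 6.62%, 14.0% and 16.9% in library order. The free chain RNA described above was also higher in both libraries labelled mavrilimumab, and its part in these shares was not tested. Thinned to 1000 UMIs per cell, the 2 arms still did not overlap in the dendritic, B, microglia and T gates (47.2, 28.4, 3.07 and 0.796 points), while the NK gate came to -2.03. In Ptprc-positive cells outside the neutrophil rule, a set chosen after the data were seen, the B-gate difference was 30.8 points (exact permutation p = 0.667). The arms overlapped there, whereas the dendritic, microglia and T gates had 33.7, 5.67 and 2.72 points (exact permutation p = 0.33 for each).

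In the summed counts, 0 of the 7 genes were called between the arms in any of 6 gates. In the microglia gate, where 0% of 13601 genes were called by edgeR, 235 had an unadjusted p under 0.05 and DESeq2 called 12, the log2 folds were 6.13 ± 0.46 for H2-Eb1, 5.61 ± 0.57 for H2-Aa and 4.10 ± 0.39 for H2-Ab1 (edgeR adjusted p = 1.00 for each, unadjusted 0.000168, 0.000545 and 0.000403). Ciita had 3.71 ± 0.87, Cd74 2.75 ± 0.89, H2-DMb1 1.31 ± 0.55 and H2-DMa 0.81 ± 0.37, and the median of the 7 was 3.71, against -0.11 over all genes. DESeq2 called the 3 chains. Without the library labelled vehicle IgG 1, edgeR called all 7 (1.17 for H2-DMa to 6.45 for H2-Eb1) among 4587 of 14413 genes, and without vehicle IgG 2 it called the chains, Cd74 and Ciita (2.06 to 5.97) among 365 of 14583. Each of these fits has 1 library in the vehicle arm, so that the spread comes from the 2 libraries labelled mavrilimumab and the lone library is assumed to vary like them. Without either library labelled mavrilimumab it called 0 genes. In cells of 1 gate only the chain folds were 2.88, 1.50 and 3.51 for H2-Aa, H2-Ab1 and H2-Eb1, that of Cd74 was 0.63 ± 0.33 (237, 149, 258 and 312 CPM), those of H2-DMb1 and H2-DMa were 0.66 and 0.41, none was called and Ciita was not tested. Beside these stand the ambient chain levels of 16.4, 12.6, 404 and 307 CPM, the 9 and 14 microglia-gate cells rich in chains in the libraries labelled mavrilimumab, and the markers in the library labelled vehicle IgG 2, the lone vehicle library of the fit that called all 7, with microglia markers at 6582 and neural markers at 543 CPM. Their part in the difference was not tested.

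In the dendritic gate, where 0% of 8982 genes were called by edgeR, 719 had an unadjusted p under 0.05 and DESeq2 called 15, the 7 folds ran from 1.68 ± 0.51 (H2-DMa) to 3.78 ± 1.94 (H2-Eb1), with edgeR adjusted p from 0.603 to 0.717. Without the library labelled vehicle IgG 1 all 7 were called, from 2.19 to 3.02, among 1080 of 11312 genes, and without vehicle IgG 2 all but H2-DMa were, among 1195 of 8805, again with 1 library in the vehicle arm. Without either library labelled mavrilimumab none was called. Ptprc-positive cells outside the neutrophil rule gave 0.87 to 1.90, none called. In this gate the neural markers summed to 0, 887, 11.1 and 17.2 CPM and the microglia markers to 19466, 676, 2116 and 1984 CPM in library order, each high in 1 library labelled vehicle IgG, and their part was not tested. In the monocyte gate 1.53% of 6994 genes were called and 0 of the 7: chain folds were 1.27 to 1.38, Cd74 1.39 ± 0.40, Ciita 1.25 ± 0.48, H2-DMb1 1.20 ± 0.40 and H2-DMa 0.63 ± 0.39 (edgeR adjusted p from 0.164 to 0.506). In cells of 1 gate only the folds were 0.78 for H2-Aa, 0.89 for H2-Ab1, 1.06 for H2-Eb1, 0.10 for H2-DMa, 0.54 for H2-DMb1, 1.05 for Cd74 and 0.99 for Ciita, none called. Here 1 library stands for vehicle IgG, taken to vary like the other arm. In cells of 1 gate only, its chain level was 4164 CPM. The libraries labelled mavrilimumab 1 and 2 lay on either side of it, at 14849 and 114 CPM, so that those folds have no shared direction.

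In the B gate, where 0% of 11177 genes were called by edgeR, 579 had an unadjusted p under 0.05 and DESeq2 called 45, the folds were 2.45 ± 1.41 for H2-Aa, 2.71 ± 1.38 for H2-Ab1, 2.23 ± 1.8 for H2-Eb1, 3.21 ± 1.42 for Cd74, 0.49 ± 0.54 for H2-DMa, 0.99 ± 0.94 for H2-DMb1 and 1.83 ± 1.04 for Ciita. Without the library labelled vehicle IgG 1, H2-Eb1 stood at 1.28 and H2-DMb1 at 3.38, and without vehicle IgG 2 H2-Eb1 stood at 8.15 and Cd74 at 5.19, none called. The microglia markers of the B gate, 18323, 522, 1490 and 4743 CPM in library order, were highest in the library labelled vehicle IgG 1. Its B cell markers summed to 226, 308, 44809 and 925 CPM and 5 T cell markers to 590, 374, 460 and 1583 CPM. In the library labelled mavrilimumab 2, 187 of 326 B-gate cells met another gate. The part of these markers and cells in the folds was not tested. In the T gate, where 0% of 14642 genes were called, 734 had an unadjusted p under 0.05 and DESeq2 called 175, they were 2.91 ± 1.81 for H2-Aa, 2.32 ± 1.52 for H2-Ab1, 2.60 ± 1.87 for H2-Eb1, 3.44 ± 1.61 for Cd74, 0.87 ± 0.32 for H2-DMa, 2.65 ± 1.05 for H2-DMb1 and 1.1 ± 0.77 for Ciita. Cd74 stood at 1.26 and H2-Ab1 at 0.68 without the library labelled mavrilimumab 1. The NK gate (1 against 2) had 10.6% of 11565 genes called and 0 of the 7, with folds of 0.13 to 0.85. In cells of 1 gate only the folds were -2.54, -1.97 and -2.62 for H2-Aa, H2-Ab1 and H2-Eb1 and -2.01 for Cd74, so that no direction holds in this gate. These 4 folds are against a vehicle arm of 1 library, and the 20 such cells of the library labelled mavrilimumab 1 held 1 chain UMI. In the edgeR fits to all cells H2-DMa had the lowest fold of the 7 in all 6 gates, which share libraries and cells. In the NK gate its fold of 0.13 lay close to those of Cd74 (0.17) and H2-DMb1 (0.17). In NK-gate cells of 1 gate only H2-DMa did not have the lowest fold, since its fold stayed positive there.

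**Figure D4:**
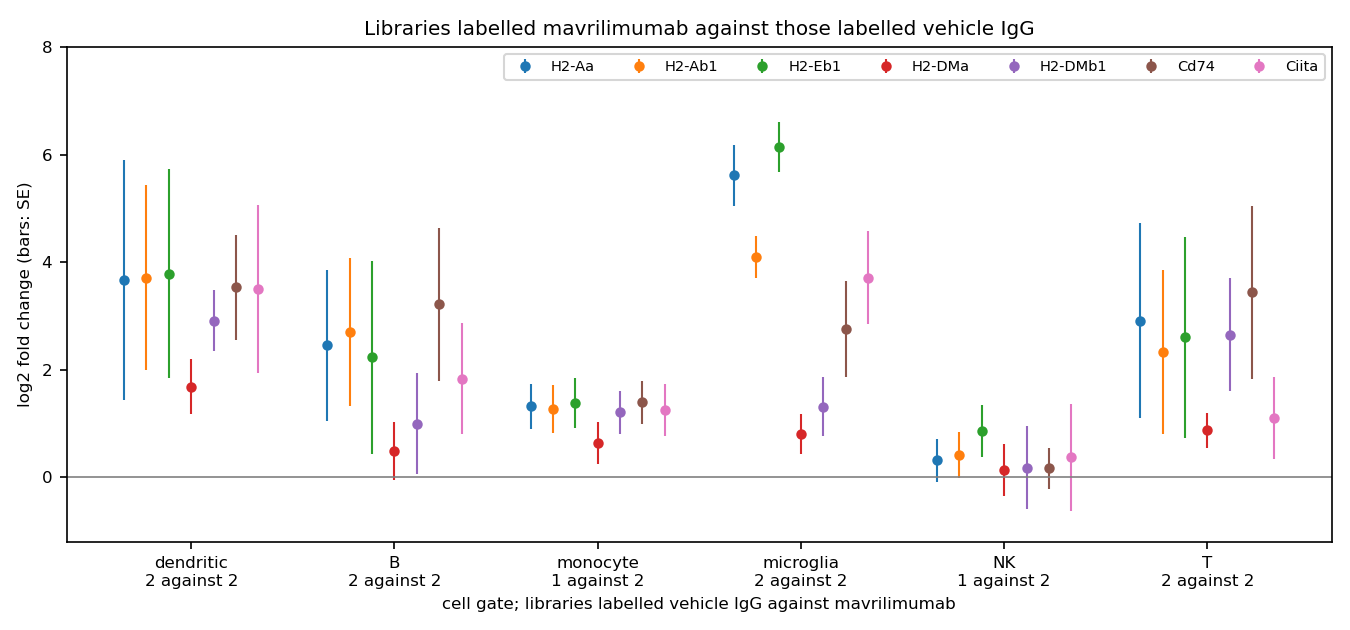
Log2 fold change of each class II gene, libraries labelled mavrilimumab against those labelled vehicle IgG (y axis, bars are SE), in 6 gates. Numbers under each gate are libraries labelled vehicle IgG against mavrilimumab: the microglia gate reached 6.13 for H2-Eb1, and no point was called by edgeR.

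Among 26 other genes of the class II pathway, which hold further class II genes, RFX and NF-Y subunits, endosomal proteases and the interferon gamma response, between 21 and 24 were tested per gate between the arms. None was called in the dendritic, B, monocyte, microglia or T gate. In the NK gate, where the vehicle arm is 1 library and 0.649% of all genes were called higher and 10% lower, 3 passed the threshold as higher, among them Ctss, the protease that trims Cd74 (1.66 ± 0.42), and Cd83, which keeps class II at the surface (3.24 ± 0.93), and Ctsl, another protease, was lower (-1.58 ± 0.40). These calls compare 2 libraries with that 1, whose NK gate had neural markers at 359 CPM, against 0 and 2.58, and microglia markers at 493 CPM, against 684 and 1294. Ctss (0.61) and Cd83 (3.01) were not called in cells of 1 gate only, while Ctsl was (-3.22). The part of these markers was not tested. The 4 with the highest mean level in the microglia gate were Ctss (0.78 ± 0.74), Ctsb (0.67 ± 0.77), Lgmn (0.78 ± 0.74) and Ctsl (0.66 ± 0.49), and in the dendritic gate Ctss (-1.60 ± 1.56), Ctsb (-2.15 ± 1.50), Lgmn (-2.18 ± 1.40) and Ifi30 (1.89 ± 0.67). In the B gate they were Ctss (-0.77), Ctsb (-1.04), Lgmn (-1.42) and Ctsl (-1.63). The highest that are reported were Ctss (1.72), Ifi30 (1.23) and Ctsb (1.21) in the monocyte gate and Ifngr1 (0.08), Jak1 (0.12) and Ctss (1.05) in the T gate. The median over the list was 0.32 in the microglia gate and 0.09 in the dendritic gate, against 3.71 and 3.53 for the 7 genes. In the monocyte gate the list had a median of 1.07 and the 7 genes one of 1.27, while the B, NK and T gates had 0.02, 0.10 and 0.28 for the list and 2.23, 0.31 and 2.60 for the 7 genes.

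Of 25 tested, 12 were higher and 7 lower in the microglia gate than in the T gate, among them Lgmn, an endopeptidase (5.52 ± 0.91), Ctsl (4.86 ± 0.92), Marchf1, the ligase that removes class II from the surface (4.35 ± 0.74), Cd83 (4.34 ± 0.63) and Ctss (4.30 ± 0.71). The others were Ctsb (3.67), Ifngr2 (2.77), Ifi30 (2.68), H2-DMb2 (2.63), H2-Oa (1.63), H2-Ob (1.39) and Nfya (1.00). The lower ones, where 20.5% of all genes were called lower, included Rfxap, Nfyb, Ifngr1, Jak1, Jak2 and Irf1, at -1.59 to -0.70. In the microglia gate Ctss stood at 6826, 2385, 7347 and 8267 CPM in library order, against 7348, 213, 1156 and 1359 CPM in the dendritic gate, where the first value is that of the library with microglia markers. Monocyte-gate sums were lower than microglia-gate sums in Lgmn (-3.29 ± 0.93) and Ctsl (-3.24 ± 0.96), where 6.35% of all genes were, and higher in Jak2 (1.57 ± 0.31) and Ifi30, the thiol reductase of the endosome (1.33 ± 0.43). Ifi30 was also higher in the dendritic than in the B gate (1.75 ± 0.41) and lower in the B than in the monocyte gate (-2.43 ± 0.45). Jak2, a kinase of the interferon gamma receptor, was higher in the dendritic than in the B (1.04) and microglia (1.56) gates and lower in the B than in the monocyte gate (-1.06), and Jak1 was lower in the dendritic than in the B gate (-0.90). Against the NK gate, where 11.3% of all genes were called higher and 8.82% lower, 10 were higher in the microglia gate, namely Lgmn (5.43), Ctss (5.22), Marchf1 (4.64), Ctsl (4.47), Ifngr2 (4.47), Ctsb (3.72), Cd83 (3.67), H2-Ob (3.57), Ifi30 (3.00) and Nfya (0.84), and 2 were lower, Jak1 (-1.58) and Nfyb (-1.15). In the contrast of the T gate with the neural or tumour gate, with 18% of all genes called higher and 25% lower, 10 were higher, among them H2-Oa (4.98), H2-Ob (4.27), H2-Eb2 (3.86), Ifngr1 (3.53), Cd83 (2.97), Jak1 (2.55), Ctss (2.46), Irf1 (1.27) and Jak2 (0.93), and 3 were lower, Ctsl (-2.93), Lgmn (-2.58) and Marchf1 (-2.12). None was called between the dendritic and monocyte gates (Ctss -0.71, Ctsb -0.13, Ifi30 -0.68, Lgmn 0.83) or between the NK and T gates (Ifngr1 -0.02, Jak1 -0.01, Irf1 -0.41). DO, an inhibitor of DM, is encoded by H2-Oa and H2-Ob, and these stood at 69.2, 43.0, 12.8 and 65.1 CPM and at 12.4, 36.8, 58.6 and 119 CPM in the B gate. Of 6 genes of costimulation and its checkpoint ligands, 4 were higher in the microglia than in the T gate (Cd80, Cd86, Cd40 and Icosl, 1.84 to 3.34) and Pdcd1lg2 was lower (-3.55 ± 0.47), beside 19.9% and 20.5% of all genes. Against the NK gate the microglia gate was higher in Cd80 (3.55), Cd86 (4.84) and Icosl (1.61) and lower in Pdcd1lg2 (-4.51). The T gate was above the neural or tumour gate in Cd86 (4.70), Icosl (2.07), Cd274 (3.27) and Pdcd1lg2 (5.89), and the B gate above the monocyte gate, where 4.58% of genes were called higher, in Cd274 (2.17) and Pdcd1lg2 (2.60). None of the 6 was called in the other contrasts of gates or between the arms. H2-Ea, which encodes the alpha chain of I-E, had no UMI in any of the 7 gates in any library.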

How the data were processed

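The authors deposited unfiltered UMI counts per gene and barcode for 4 libraries, as Cell Ranger wrote them. The file headers name Cell Ranger 9.0.1, whereas the submitters' processing notes name Cell Ranger 7 and 7.1.0, Scanpy 1.8.2 and the mm10 build. Receptor files of 3 libraries served only the barcode check, and the remaining one is not analysed here. Counts were summed per library and gate of at least 20 cells and tested with edgeR 4.0.16 (quasi-likelihood, TMM scaling, filterByExpr, Benjamini-Hochberg FDR 0.05) in R 4.3.3, with DESeq2 1.42.0 as an alternative. Shares were compared by exact permutation over libraries in Python 3.11.15, and intervals are Clopper-Pearson at 95%. Gates overlap, and doublets were not removed. Ambient levels came from barcodes of 10 to 300 UMIs, and a share of 0 was given a limit of 3 counts. Intervals and limits cover counting error only.

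The rule for named genes took all 7 genes, the pathway genes that were called, or the 4 with the highest mean CPM where none was, and the 10 non-members most correlated with the chains. Members and lists were chosen with earlier results of these data known. On counts simulated at a set dispersion of 0.05, 93% of genes changed by a log2 fold of 2 were recovered in the microglia treatment comparison (13601 genes) and 81% in the dendritic one (8982 genes). At a set dispersion of 0.3, 27% were recovered in the contrast of the dendritic and microglia gates (15315 genes), and 91% at a log2 fold of 4. The dispersions differ, so these shares do not compare the designs. Both dispersions were set and not estimated from these libraries, so the shares do not give the power of the fits above. Some genes of the lists are not reported here.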

Additional observations from a re-analysis of the deposited data

How the results depend on the processing

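Of the gene-level folds of the 7 members under the alternatives, 819 kept their direction and side of the threshold, 58 gained a call, 68 lost one and 34 changed sign. Of the shares and their differences between the arms, 100 stayed within the SD over libraries (shares) or kept their sign (differences), 6 moved and 6 changed sign. Of the counts of called genes 99 stayed within 1.5 times and 41 did not. The cause of each change below was not tested. DESeq2 called 15 genes between the arms in the dendritic gate, 45 in the B gate, 54 in the monocyte gate (107 with edgeR), 12 in the microglia gate, 206 in the NK gate (1231 with edgeR) and 175 in the T gate. With no filter on low counts 452, 697 and 1894 genes were called in the dendritic, monocyte and NK gates. The monocyte gate gave 24 with RLE scaling, 0 in cells of 1 gate only and 70 in Ptprc-positive cells outside the neutrophil rule, a set chosen after seeing the data. That set gave 45, 885 and 472 genes in dendritic-monocyte, dendritic-microglia and NK-T, cells of 1 gate only gave 488 and 1260 in the first 2 of these, and cells of at least 2000 UMIs gave 89 in dendritic-microglia and 204 in NK-T.

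Leaving out 1 library at a time gave 0 to 1195 called genes between the arms in the dendritic gate and 0 to 4587 in the microglia gate. Between gates it gave 75 to 900 (dendritic-B), 0 to 90 (dendritic-monocyte), 1 to 740 (dendritic-microglia), 24 to 1558 (B-monocyte), 128 to 1974 (monocyte-microglia), 337 to 3242 (microglia-NK), 9 to 277 (NK-T), 3369 to 7419 (microglia-T) and 890 to 6280 (T against neural or tumour). The log2 folds that crossed 0 ran from -0.88 to 0.052 for Ciita in microglia-NK, -0.24 to 1.39 for H2-Eb1 and -0.0056 to 0.48 for H2-DMa in NK-T, -0.22 to 0.81 for Ciita in microglia-T and -0.25 to 1.06 for H2-DMa in T against neural or tumour. The NK difference in chain-positive share ran from -2.08 to 2.49 points.

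Folds between the arms in the NK gate turned negative with DESeq2 for H2-Aa (-0.23), H2-DMb1 (-0.034), Cd74 (-0.066) and Ciita (-0.10). In cells of 1 gate only they were -2.54 for H2-Aa, -1.97 for H2-Ab1, -2.62 for H2-Eb1, -0.40 for H2-DMb1, -2.01 for Cd74 and -0.0089 for Ciita. In the same cells dendritic-monocyte came to 0.63 for H2-Aa, 1.08 for H2-Ab1, 1.04 for H2-Eb1, 0.18 for H2-DMa, 0.77 for H2-DMb1, 0.80 for Cd74 and 0.53 for Ciita. Cd74 came to -0.047 in dendritic-B and 0.84 in B-monocyte, H2-Ab1 to 0.055 in B-monocyte, H2-Eb1 to -0.46 in NK-T and Ciita to -2.20 in microglia-T. Ptprc-positive cells gave 0.036 for H2-Aa, 0.14 for H2-Ab1, 0.23 for H2-Eb1, 0.019 for H2-DMb1, 0.072 for Cd74 and 0.34 for Ciita in dendritic-monocyte, and 0.12 for Ciita in microglia-NK. Chain-positive shares in cells of 1 gate only were 85.1% in the B gate and 41.7% in the monocyte gate, with a difference between the arms of -1.73 points in the latter. Thinning gave 3.38% in the microglia and 2.41% in the NK gate, and a minimum of 2 UMIs gave 5.81% and 2.47%. The NK difference was -2.03 points thinned, -0.62 with 2 UMIs, -0.80 in cells of 1 gate only and -0.58 with at least 2000 UMIs.

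The libraries share replicate numbers between the arms with no stated pairing. The correlation of same-numbered libraries' deviations was 0.21, -0.19, 0.21 and 0.51 in the dendritic, B, microglia and T gates. With a replicate block edgeR called 0 genes in each of these 4 gates, and 0 with the crossed pairing in the B gate, chosen after seeing the data. Fits without 1 library in the monocyte and NK gates, of the dendritic gate's arms in cells of 1 gate only, of the NK arms with at least 2000 UMIs or at most 5% mitochondrial UMIs, and of T against neural or tumour cells in Ptprc-positive cells could not be fitted.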

Other observations

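Cells of a few further, rare cell rules also held class II chains. The macrophage and neutrophil rules took only cells in none of the 7 gates. The progenitor rule did not, so its cells may also be counted in a gate. Cells meeting a progenitor rule numbered 0, 7, 1 and 10 in library order, of which 2 of 7 (28.6%) and 7 of 10 (70.0%) were chain-positive in the second and the fourth library. Cells meeting a macrophage rule numbered 1, 10, 3 and 16, with 2 of 10 (20.0%) and 11 of 16 (68.8%) chain-positive in the same libraries. Cells meeting a neutrophil rule numbered 9, 65, 19 and 55, with 0%, 1.54%, 0% and 10.9% chain-positive. Cells in none of the 7 gates were chain-positive in 0%, 1.62%, 5.51% and 11.5% of cases.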
